A study of Mus musculus with 52 samples.

Results

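The 37 genes described here encode the extracellular matrix and the proteins by which fibroblasts are recognised. They were chosen by symbol from a fixed list, every symbol was found, and they make up 37 of the 57010 genes in the table. They fall into 8 groups by role, namely 5 fibrillar collagen chains, 8 other collagen chains, 6 fibronectin and elastic fibre proteins, 4 proteoglycans, 4 matricellular proteins, 4 proteins of collagen processing and crosslinking, 4 fibroblast surface proteins and 2 contractile proteins. All mice carried a human CD40 transgene (hCD40tg) and were inoculated with MC38-CEACAM5, a mouse colon carcinoma line that expresses the human surface antigen CEACAM5. They received vehicle, an antibody against CD40 (CD40 mAb) or ATOR-4066, a bispecific antibody that binds CD40 and CEACAM5. PolyA RNA was sequenced from whole tumors (4 vehicle, 5 CD40 mAb and 4 ATOR-4066 libraries), from lymph nodes (4, 4 and 5) and from CD45+Ly6G- cells, that is, leukocytes other than neutrophils, sorted from tumors (4, 3 and 3). Tumor and lymph node libraries with one number share an animal (1 to 5 in each treatment), and the sorted cells came from other animals (6 to 10). The labels state no dose, time, age, strain or transgene promoter, and the tumors rest on a single cell line.

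Fibroblasts secrete collagen chains that assemble as trimers, are modified and folded in the endoplasmic reticulum, trimmed outside the cell and crosslinked into fibres. Fibronectin, fibrillins, fibulins and proteoglycans organise these fibres, and matricellular proteins tune how cells attach to them. In tumors this stroma is made mainly by fibroblasts and pericytes, but macrophages also make some of its parts, among them fibronectin and versican, and podoplanin is made by fibroblasts, lymphatic endothelium and some macrophages.

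Libraries of whole tumor held 47.4 to 64.2 M counts, those of lymph node 46.3 to 138 M and those of sorted cells 30.2 to 47.4 M. Levels are given as CPM, the usual counts scaled to a common library size, after TMM (trimmed mean of M values) scaling within a material. The lymph node library labelled vehicle 3 and the tumor library labelled ATOR-4066 3 were left out by the rule that defines the genes. The 9 B cell markers summed to 19.6 CPM in the first, against 2510 to 4730 CPM in the other lymph nodes, and to 3180 CPM in the second, against 9.88 to 146 CPM in the other tumors. Epithelial markers were low in whole tumors (4.34 to 377 summed CPM) and stood at 152 to 432 summed CPM in vehicle lymph nodes. Their sum was therefore not taken as a measure of the carcinoma cells. The tumor labelled CD40 mAb 5 stood apart, with T cell markers at 1950 summed CPM against 90 to 258 in the other CD40 mAb tumors. It also had the highest summed macrophage (23800 CPM), fat cell (1790 CPM), endothelial (503 CPM) and epithelial (377 CPM) markers of all tumors, and the highest level of 15 of the 37 genes. The part of these cell types or of attached tissue in its values was not tested. In the sorted cells, vehicle 7 was the lowest of its group for 30 of the 37 genes and ATOR-4066 9 the lowest of all sorted libraries for 25. In whole tissue, fewer cells of a type and less RNA per cell cannot be told apart.

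The 250 bases before the annotated start are shown for 5 of the 8 genes of smallest p with ATOR-4066 in whole tumor, Pdpn and Vcan with positive changes and Col6a2, Col5a1 and Col3a1 with negative ones, to set the promoters of both directions side by side. The list is not complete: other genes, Col6a1 among them, had changes as large. They are RefSeq sequences on GRCm38.p6, 5′ to 3′ on the strand of the gene, and hold no base of an annotated exon. Capitals mark matches on either strand to 5 motifs, namely the GC box GGGCGG, the TATA box TATAAA, the CCAAT box, the AP-1 motif TGANTCA and the E-box CACGTG.
Pdpn, chr4:143299565-143299814, minus strand: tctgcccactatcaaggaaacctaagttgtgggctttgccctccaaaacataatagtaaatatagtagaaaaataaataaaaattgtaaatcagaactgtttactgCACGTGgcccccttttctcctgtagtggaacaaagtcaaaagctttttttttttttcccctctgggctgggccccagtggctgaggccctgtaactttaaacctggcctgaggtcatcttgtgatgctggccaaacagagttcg
Vcan, chr13:89742513-89742762, minus strand: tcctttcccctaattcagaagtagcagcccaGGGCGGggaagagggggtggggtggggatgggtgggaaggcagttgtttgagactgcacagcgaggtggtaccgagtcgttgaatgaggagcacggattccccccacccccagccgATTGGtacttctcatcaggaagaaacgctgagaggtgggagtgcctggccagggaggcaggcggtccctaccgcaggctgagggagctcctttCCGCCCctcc
Col6a2, chr10:76623631-76623880, minus strand: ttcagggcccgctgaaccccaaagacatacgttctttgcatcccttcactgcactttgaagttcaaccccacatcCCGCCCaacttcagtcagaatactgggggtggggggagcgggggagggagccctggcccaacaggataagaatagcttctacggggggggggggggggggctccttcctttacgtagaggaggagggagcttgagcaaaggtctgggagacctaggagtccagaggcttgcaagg
Col5a1, chr2:27886175-27886424, plus strand: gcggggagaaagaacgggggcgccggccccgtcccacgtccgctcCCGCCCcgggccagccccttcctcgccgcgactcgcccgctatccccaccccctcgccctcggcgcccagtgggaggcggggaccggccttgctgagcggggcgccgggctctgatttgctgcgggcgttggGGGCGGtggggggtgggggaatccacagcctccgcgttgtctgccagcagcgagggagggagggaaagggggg
Col3a1, chr1:45311288-45311537, plus strand: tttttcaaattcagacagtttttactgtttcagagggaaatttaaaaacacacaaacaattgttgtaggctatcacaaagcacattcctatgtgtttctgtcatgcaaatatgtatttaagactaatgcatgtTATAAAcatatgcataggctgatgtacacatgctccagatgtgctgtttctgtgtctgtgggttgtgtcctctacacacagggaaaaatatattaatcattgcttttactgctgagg
GGGCGG occurred in the windows of Vcan, Col6a2 and Col5a1, CCAAT in that of Vcan, TATAAA in that of Col3a1 and CACGTG in that of Pdpn. Of 32851 windows of this length, 32.7% held GGGCGG, 33.8% CCAAT, 12.4% TATAAA, 6.75% TGANTCA and 6.02% CACGTG. Entries were found for 23 of the 37 genes, with 27 windows, of which 14, 5, 5, 1 and 3 held the motifs in that order. A match is a description of these letters and not evidence of binding.

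In vehicle tumors the genes took 2.49 to 3.24% of all counts. Per kilobase of merged exon, Col3a1, the chain of type III collagen, stood highest at 707 ± 84.1 CPM per kb (SD, n = 4), followed by Serpinh1, the collagen chaperone HSP47, at 614 ± 89.0 and Col1a1 at 602 ± 154 (both n = 4). The ranges of mean ± SD of these 3 genes overlapped. Fap, the surface protease of activated fibroblasts, and Vcan, the large proteoglycan versican, were lowest at 0.798 and 1.01 CPM per kb. In vehicle lymph nodes the order was different, with Sparc, a collagen-binding matricellular protein, highest at 90.4 CPM per kb, then Serpinh1 at 63.7 and Dcn, the small proteoglycan decorin, at 49.2.

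Whole tumors of ATOR-4066 animals were compared with vehicle tumors to ask how the levels of these genes differed with the bispecific antibody. Podoplanin (Pdpn) rose, and no other of the 37 genes passed the test. The collagen chains Col1a1, Col3a1, Col5a1, Col6a1 and Col6a2 lay lower in every ATOR-4066 tumor than in every vehicle tumor, while versican, fibulin 2 and lysyl oxidase had positive changes, but all of these missed the threshold. Summed over the 5 fibrillar chains, the level was 4180 to 9940 CPM in ATOR-4066 tumors, 7580 to 13000 CPM in CD40 mAb tumors and 11100 to 16000 CPM in vehicle tumors. All genes together summed to 12400 to 22900 CPM with ATOR-4066, 17000 to 31700 with CD40 mAb and 24300 to 31600 with vehicle. Called higher was 1 of the 37, against 0.916% of all genes tested, and called lower were 0, against 0.401%. Before adjustment 5 were higher and 7 lower at p under 0.05, against 12.3% and 12.4% of all genes. The groups did not overlap for 5 genes that were higher and 8 that were lower, against 12.6% and 14.7% of all genes. The median log2 change of the 37 was -0.13, against 0.02 over all genes.

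**Figure D1:**
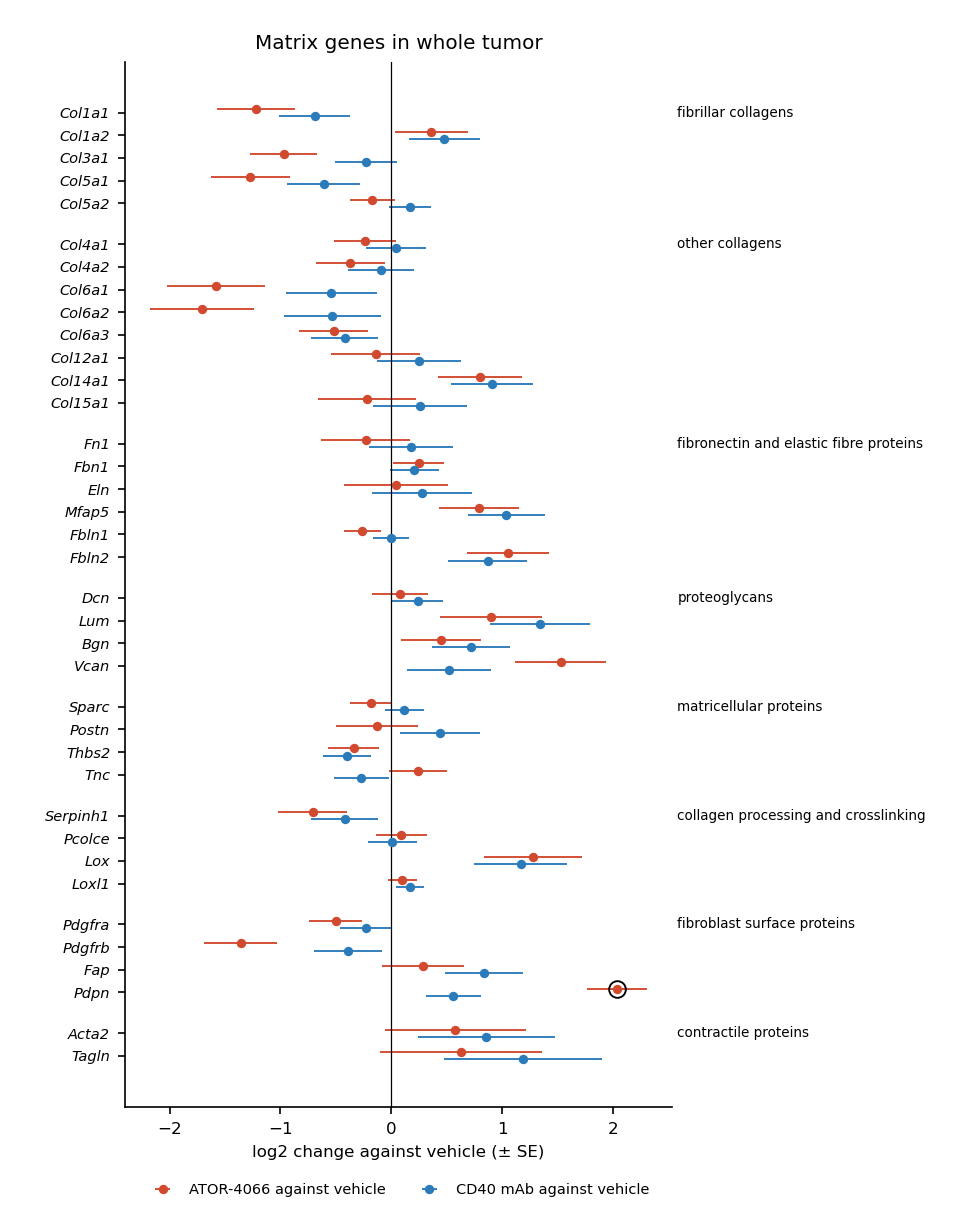
Log2 change with its standard error for the 37 genes in whole tumor, grouped by role, for ATOR-4066 (red) and CD40 mAb (blue) against vehicle. The black circle marks the single call, Pdpn with ATOR-4066, at 2.04, and the lowest value is that of Col6a2 with ATOR-4066, at -1.71.

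Among the fibroblast surface proteins, Pdpn (ENSMUSG00000028583, GRCm38 chromosome 4, 143267431 to 143299564, minus strand) encodes a mucin-like glycoprotein that binds the platelet receptor CLEC-2. Its level was 31.9, 35, 33.3 and 31.1 CPM in vehicle tumors 1, 2, 4 and 5, and 132, 201, 119 and 86.4 CPM in ATOR-4066 tumors 1, 2, 4 and 5. CD40 mAb tumors 1 to 5 had 62.3, 29.3, 40.2, 53.3 and 57.7 CPM. Every ATOR-4066 tumor was above every other tumor, and 2 CD40 mAb tumors, 2 and 3, were near the vehicle range. The change with ATOR-4066 was 2.04 ± 0.27 (log2, SE; 135 ± 48.4 against 32.8 ± 1.74 CPM, SD, n = 4 each; edgeR adjusted p = 0.025). Its size held when any single library was left out (1.8 to 2.19), but the call did not. The adjusted p was 0.0859, 0.0762, 0.11 and 0.139 without vehicle tumor 1, 2, 4 or 5, and 0.0584 and 0.0736 without ATOR-4066 tumor 1 or 2. It was 0.125 with a replicate block.

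The other surface proteins did not pass. Pdgfrb, the PDGF receptor of pericytes and fibroblasts, had 71.8, 65.2, 124 and 65.2 CPM in the vehicle tumors and 21.7, 32.9, 39.8 and 32.4 CPM in the ATOR-4066 tumors, which did not overlap. Its change was -1.36 ± 0.33 (adjusted p = 0.055). CD40 mAb tumors ranged from 29 to 89.8 CPM. Pdgfra, the receptor that marks most fibroblasts, had a change of -0.5 ± 0.24 (adjusted p = 0.216). Pdgfrb and the other genes of this comparison outside the naming rule are given with their values seen.

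Of the 5 fibrillar collagen chains none passed, and the median change was -0.97. Col5a1 (ENSMUSG00000026837, chromosome 2, 27886425 to 28039514, plus strand), a chain of the type V collagen that starts fibrils, had 993, 938, 1360 and 933 CPM in vehicle tumors, and 283, 300, 643 and 525 CPM in ATOR-4066 tumors. The CD40 mAb tumors 1 to 5 had 470, 780, 946, 936 and 330 CPM, so that 2 of them, 1 and 5, fell in the range of the ATOR-4066 tumors. Its change was -1.27 ± 0.36 (adjusted p = 0.0713). Col1a1, the main chain of type I collagen, was at 3350, 3170, 5400 and 3890 CPM in vehicle and at 816, 1320, 2800 and 1850 CPM in ATOR-4066 tumors, a change of -1.22 ± 0.35 (adjusted p = 0.0732). Col3a1 was at 7010, 6060, 8030 and 6660 CPM against 2230, 2990, 5230 and 3720 CPM, a change of -0.97 ± 0.3 (adjusted p = 0.0871). None of these 3 chains overlapped between the groups. Col1a2, which pairs with Col1a1 in the same trimer, had a change of 0.36 ± 0.33 (adjusted p = 0.524), and Col5a2 one of -0.17 ± 0.2 (adjusted p = 0.638).

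Collagen chains of one trimer are usually made together, so the ratio of their counts was also taken. This measure was chosen after the values were seen, and 30 such ratio comparisons were made. In vehicle tumors there were 4.83 to 6.53 Col1a1 counts for each Col1a2 count, and in ATOR-4066 tumors 1.16 to 2.93. CD40 mAb tumors spanned 1.32 to 6.18, with the lowest values in tumors 5 and 1. The ATOR-4066 difference was -1.68 on the log2 scale (exact permutation test, two-sided, p = 0.0286, the smallest that 4 against 4 allows; 0.159 after Benjamini-Hochberg adjustment). Ratios of Col5a1 to Col5a2 were 3.44 to 4.25 in vehicle and 1.26 to 2.34 in ATOR-4066 tumors, and those of Col6a1 to Col6a3 were 1.07 to 1.72 and 0.49 to 0.921. The chains Col4a1 and Col4a2, which share a promoter region, had ratios of 1.49 to 1.55 in vehicle and 1.56 to 1.88 in ATOR-4066 tumors, a difference of 0.15 on the log2 scale. In lymph nodes the ratio of Col1a1 to Col1a2 was 0.739 to 1.0 with vehicle and 0.719 to 0.872 with ATOR-4066. No ratio comparison passed after adjustment. The smallest p that the permutation test allows is 0.0286 for 4 against 4 and 0.00794 for 5 against 4. Over 30 comparisons no single ratio could therefore have passed on its own, and this outcome decides nothing.

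Among the other 8 collagen chains the 2 with the most negative changes belong to type VI, the beaded-filament collagen around cells. Col6a2 (ENSMUSG00000020241, chromosome 10, 76595762 to 76623630, minus strand) was at 1440, 1120, 1730 and 1170 CPM in vehicle tumors and at 221, 186, 656 and 607 CPM in ATOR-4066 tumors. CD40 mAb tumors 1 to 5 had 568, 1210, 1390, 1180 and 386 CPM, so that all ATOR-4066 tumors were below every vehicle tumor and 2 CD40 mAb tumors lay among or near them. The change was -1.71 ± 0.47 (417 ± 248 against 1360 ± 283 CPM, n = 4 each; adjusted p = 0.0701). Col6a1 had a change of -1.58 ± 0.44 (adjusted p = 0.0709), and Col6a3, the third chain, one of -0.52 (adjusted p = 0.319). Col14a1, a collagen that sits on fibril surfaces, had the only positive change of this group, 0.8 ± 0.38 (adjusted p = 0.213), without overlap between the groups.

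**Figure D2:**
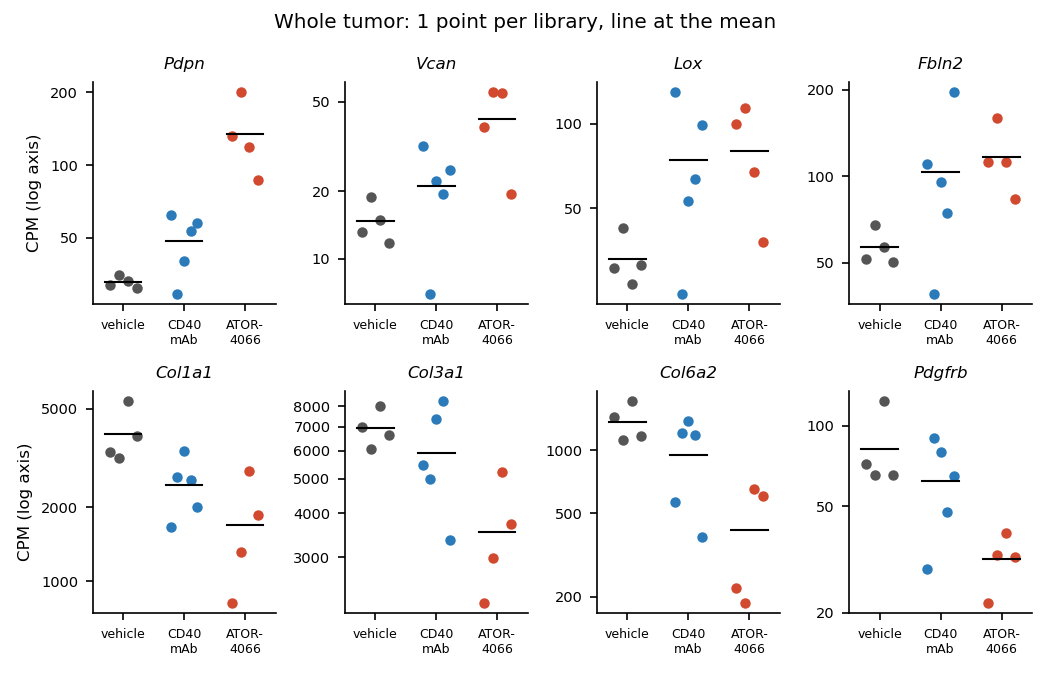
Level (CPM, log axis) of 8 genes in each whole tumor library, by treatment, with a line at the mean. ATOR-4066 tumors lie above every vehicle tumor for Pdpn (86.4 to 201 against 31.1 to 35 CPM) and below every vehicle tumor for Col6a2 (186 to 656 against 1120 to 1730 CPM).

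Fibronectin and elastic fibre proteins had a median change of 0.14 with no call. Fbln2, fibulin 2, which links elastic fibres and basement membranes, had 51.6, 67.5, 56.5 and 50.2 CPM in vehicle tumors and 112, 159, 112 and 83 CPM in ATOR-4066 tumors. CD40 mAb tumors ran from 38.8 to 197 CPM. The vehicle and ATOR-4066 tumors did not overlap, and the change was 1.05 ± 0.37 (adjusted p = 0.115). Mfap5, a microfibril protein, had a change of 0.79 ± 0.36 (adjusted p = 0.195), and Fn1, fibronectin, one of -0.23.

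All 4 proteoglycans had positive changes, with a median of 0.68, and none passed. Vcan (ENSMUSG00000021614, chromosome 13, 89655312 to 89742509, minus strand) was at 13.1, 18.9, 14.8 and 11.8 CPM in vehicle tumors and at 38.8, 55.6, 54.8 and 19.4 CPM in ATOR-4066 tumors. ATOR-4066 tumor 5 was thus just above the highest vehicle tumor, and the other ATOR-4066 tumors were well above it. CD40 mAb tumors 1 to 5 had 31.8, 6.94, 22.1, 19.5 and 24.9 CPM. The change with ATOR-4066 was 1.53 ± 0.41 (adjusted p = 0.0643). Lum, lumican, had a change of 0.9 ± 0.46 (adjusted p = 0.241) and Dcn one of 0.08.

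Matricellular proteins had changes from -0.34 to 0.24. Thbs2, thrombospondin 2, was at 329, 382, 338 and 300 CPM with vehicle and at 244, 286, 223 and 313 CPM with ATOR-4066, so that the groups overlapped (change -0.34 ± 0.23, adjusted p = 0.381), and Sparc had a change of -0.18. Among the collagen processing proteins, Lox, the lysyl oxidase that crosslinks collagen and elastin, was at 30.6, 42.5, 26.9 and 31.5 CPM with vehicle and at 100, 114, 67.4 and 37.9 CPM with ATOR-4066. ATOR-4066 tumor 5 lay inside the vehicle range, and the change was 1.28 ± 0.44 (adjusted p = 0.107). Serpinh1 had a change of -0.71 ± 0.31 (adjusted p = 0.182) without overlap between the groups. The contractile protein Acta2, smooth muscle actin, was at 17.8, 20.7, 25.6 and 21.8 CPM with vehicle and at 15.4, 41.1, 31.7 and 40.4 CPM with ATOR-4066 (change 0.58 ± 0.64, adjusted p = 0.601).

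Other genes of the same pathways were taken from separate lists. None of 20 collagen-modifying enzymes, 18 genes of the TGF-beta pathway, 4 PDGF ligands, 14 matrix receptors or 23 other fibroblast markers passed in this comparison. Their smallest adjusted p values were 0.0688 for Plod3, a lysyl hydroxylase (0.59), 0.0532 for Tgfb3, a TGF-beta ligand (-0.81 ± 0.19), 0.124 for Pdgfa (-0.73), 0.0562 for the hyaluronan receptor Cd44 (0.71) and 0.0521 for the fibroblast marker Islr (-0.91 ± 0.21). At an unadjusted p under 0.05, 4 of the other fibroblast markers were higher and 7 lower, against 12.3% and 12.4% of all genes. Among those with a positive change, C3, a complement gene, was at 594 to 1290 CPM in ATOR-4066 and 146 to 400 CPM in vehicle tumors, and it was also at 564 to 1030 CPM in sorted vehicle leukocytes. None of 14 macrophage, 12 T cell, 12 endothelial or 9 pericyte and smooth muscle markers passed either. Of 7 neutrophil markers, 4 were called higher, against 0.916% of all genes. Among them was S100a9 (5.43, edgeR adjusted p = 0.0421), which stood at only 0.235 to 0.806 CPM in vehicle tumors. Mmp9, of the same list, lay the other way, at 270 to 377 CPM with vehicle and 79.8 to 292 CPM with ATOR-4066. The summed neutrophil markers were at 305 to 407 CPM with vehicle and 136 to 527 CPM with ATOR-4066. The part of these cell types, or of the MC38-CEACAM5 carcinoma cells, in the values of the matrix genes was not tested.

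CD40 mAb, the antibody against CD40, was compared with vehicle in whole tumor, and no gene of the whole table passed (0% called by edgeR). At an unadjusted p under 0.05, 7 of the 37 genes were higher and none lower, against 9% and 2.95% of all genes, and the median change was 0.18 against 0.07 over all genes. DESeq2 called 30 genes, none of them among the 37. Lum had the largest change (1.34), followed by Tagln (1.19) and Lox (1.17), with adjusted p values of 0.412, 0.448 and 0.412. Tumors of this group differed among themselves: Lum was at 76.5, 11.4, 49.1, 39.7 and 80.9 CPM in CD40 mAb tumors 1 to 5 and at 14.1 to 26.3 CPM in vehicle tumors, so that 4 of 5 were above the vehicle range and tumor 2 below it. Col1a1 was at 1660, 2660, 3380, 2570 and 2000 CPM, with 4 of 5 below the vehicle tumors, and had a change of -0.69 ± 0.32 (adjusted p = 0.412). The value of Tagln, transgelin, rests on tumor 5, which had 96.4 CPM against 6.54 to 20.2 CPM in the other CD40 mAb tumors, and its change without that tumor was -0.14.

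Directly compared, ATOR-4066 and CD40 mAb tumors differed in 0.0325% of all genes and in none of the 37 (1 without CD40 mAb 5 or without ATOR-4066 5). Pdpn came nearest, with a change of 1.47 ± 0.24 (135 ± 48.4 against 48.5 ± 13.5 CPM, n = 4 and 5; adjusted p = 0.0899) and no overlap between the groups, as for 1 of the 37 genes and 0.954% of all genes upwards. Pdgfrb had -0.97 (adjusted p = 0.326), Col6a2 -1.18 (adjusted p = 0.414) and Vcan 1.00 (adjusted p = 0.411). Of the 37 genes 29 had a negative change, with a median of -0.27 against -0.07 over all genes. The comparisons of one material share libraries, so their values are not independent.

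Lymph nodes were compared in the same way to see whether these genes changed away from the tumor. None of the 37 genes passed with either antibody, against 0% of all genes called with ATOR-4066 and 0.0643% with CD40 mAb. With ATOR-4066, 32 of the 37 changes were negative, 9 were lower at an unadjusted p under 0.05 (9.55% of all genes were) and the median was -0.46 against -0.01. Groups did not overlap for 2 that were lower, against 2.77% of all genes. With CD40 mAb, 34 were negative, 9 were lower at an unadjusted p under 0.05 (11.6% of all genes) and the median was -0.54 against -0.02. Groups did not overlap for 5 that were lower, against 9.45% of all genes. The 2 antibodies share the vehicle nodes, and between them no gene of the 37 passed or reached an unadjusted p under 0.05 (0.0161% and 9.32% of all genes did), with a median of 0.05.

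Decorin (Dcn), which binds collagen fibrils, was at 302, 333, 256 and 257 CPM in vehicle nodes 1, 2, 4 and 5 and at 152, 167, 118, 167 and 235 CPM in ATOR-4066 nodes 1 to 5. The groups did not overlap, and the change was -0.77 ± 0.18 (168 ± 42.4 against 287 ± 37.3 CPM, n = 5 and 4; adjusted p = 0.222). Fbln1, fibulin 1, was at 16.2, 16, 10.3 and 6.18 CPM with vehicle, at 3.99, 3.02, 1.5, 2.92 and 5.77 CPM with ATOR-4066 and at 3.93, 2.74, 8.38 and 2.78 CPM in CD40 mAb nodes 2 to 5. Its changes were -1.82 ± 0.43 with ATOR-4066, without overlap (adjusted p = 0.222), and -1.45 ± 0.46 with CD40 mAb, where node 4 lay inside the vehicle range (adjusted p = 0.109). Thbs2 had 37.2, 14.7, 12.8 and 11.9 CPM with vehicle and 9.05, 5.74, 3.84, 10.4 and 13.1 CPM with ATOR-4066 (change -1.18 ± 0.4, adjusted p = 0.233), and vehicle node 1 stood far above the rest. With CD40 mAb, Postn, periostin, had 53.6, 23.1, 58.7 and 39.2 CPM against 142, 100, 96.5 and 71.5 CPM with vehicle, without overlap (change -1.23 ± 0.45, adjusted p = 0.144). Fbln2 had 11.7, 13, 15.8 and 8 CPM against 36.8, 33.2, 23.7 and 14.2 CPM (change -1.15 ± 0.42, adjusted p = 0.144), with CD40 mAb node 4 inside the vehicle range. Vehicle node 1 was the highest of all nodes for 24 of the 37 genes and ATOR-4066 node 3 the lowest for 29.

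Markers of fat, a tissue that surrounds lymph nodes, moved with these values. All 10 fat cell markers had negative changes with both antibodies, with medians of -1.77 (ATOR-4066) and -1.8 (CD40 mAb), and summed to 1370 to 4130 CPM in vehicle, 122 to 1340 CPM in CD40 mAb and 18.9 to 1940 CPM in ATOR-4066 nodes. All 23 other fibroblast markers tested were also negative, with medians of -1.33 and -1.21, and none of either list passed. The 11 epithelial markers tested were likewise all negative with both antibodies, with medians of -1.12 and -1.65 (ATOR-4066 and CD40 mAb). They summed to 152 to 432 CPM in vehicle, 30.9 to 160 CPM in CD40 mAb and 19.4 to 240 CPM in ATOR-4066 nodes, and none passed. Among them Krt8, a keratin of simple epithelia, was at 36.4 to 145 CPM in vehicle nodes and at 67.7, 0.0181, 0.0188, 0.493 and 46.3 CPM in ATOR-4066 nodes 1 to 5. All 14 macrophage markers were negative with ATOR-4066 and 9 of 14 with CD40 mAb, also with no call. The part of attached tissue and of these cell types in the lymph node values was not tested.

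**Figure D3:**
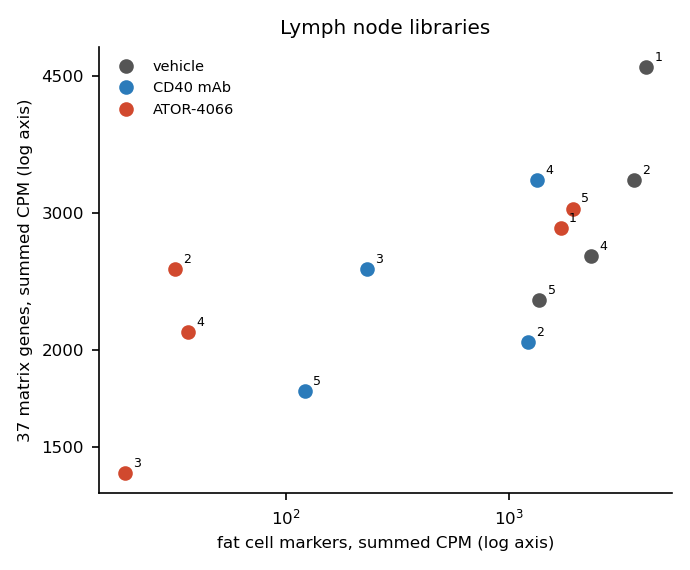
Summed level of the 37 genes against that of 10 fat cell markers in each lymph node library (CPM, log axes), with points numbered by animal and coloured by treatment. Vehicle nodes lie at 1370 to 4130 CPM of fat cell markers and 2320 to 4620 CPM of the 37 genes, and most antibody nodes lie below them on the first axis. On the second axis the groups overlap, with CD40 mAb nodes at 1770 to 3310 CPM and ATOR-4066 nodes at 1390 to 3040 CPM.

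The difference between tumor and lymph node was itself tested as an interaction. With ATOR-4066 the change in tumor exceeded that in lymph node for 7 of the 37 genes, against 3.47% of all genes, and was below it for 1, against 2.41%. The 7 were Pdpn (log2 difference 2.08 ± 0.48, limma adjusted p = 0.0151), Fbln2 (2.11 ± 0.56, 0.0281), Col14a1 (1.62 ± 0.47, 0.0376), Lox (2.14 ± 0.62, 0.0382), Mfap5 (2.12 ± 0.62, 0.0407), Lum (2.58 ± 0.76, 0.0411) and Fbln1 (1.41 ± 0.42, 0.0423). Pdpn had a lymph node change of -0.08 ± 0.24, and the other 6 had lymph node changes from -1.82 (Fbln1) to -0.75 (Col14a1), in nodes where the fat cell markers had negative changes too. In tumor Fbln1 had a change of -0.26 ± 0.17. Pdgfrb was the 1 below (-1.24 ± 0.33, adjusted p = 0.0292). With CD40 mAb, Mfap5 alone passed (2.49 ± 0.66, adjusted p = 0.0374), against 0.696% of all genes higher. Single libraries were left out in fits without the animal block, which called 8 of the 37 with ATOR-4066 and 2 with CD40 mAb when no library was left out. The 8 became 1 (vehicle tumor 4 or ATOR-4066 tumor 1), 2 (vehicle tumor 1 or 5, vehicle node 1 or ATOR-4066 tumor 2), 3 (ATOR-4066 node 3), 4 (vehicle tumor 2) or 5 (vehicle node 2 or ATOR-4066 node 2). The 2 became 0 without vehicle tumor 1, 2, 4 or 5, vehicle node 1, CD40 mAb tumor 1 or CD40 mAb node 3 or 5. They became 1 without vehicle node 2 or 4, CD40 mAb tumor 3, 4 or 5 or CD40 mAb node 2, and 7, 6 and 4 without CD40 mAb tumor 2, vehicle node 5 and CD40 mAb node 4. Counts over all genes moved as well. Without the block they were 1446 with ATOR-4066 and 731 with CD40 mAb. They ran from 222 to 2103 and from 180 to 2275 when single libraries were left out. With both set-aside libraries under their labels none of the 37, and 0 of all genes, passed for either antibody.

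Sorted CD45+Ly6G- cells were compared with whole tumor in vehicle libraries, scaled together, for the level of the 37 transcripts that remained in the sort. Which transcripts were carried over from other cells and which were made by the sorted leukocytes was not tested, and the genes differed. Scaled within the sorted libraries, vehicle 7 had the lowest Col1a1 of its group (2.87 CPM). It had the highest Fn1 (1650 CPM) and Vcan (104 CPM) of that group. Of the 37 genes, 35 were called lower in the sorted cells and 1 higher, against 39.3% and 33.9% of all genes. The median gene stood at 1.71% of its tumor level, where such percentages are taken from the fitted log2 change. All 8 leukocyte common genes and all 12 T cell markers were called higher. Among the collagens, Col1a1 had a change of -5.89 (adjusted p = 0.000226) and Col3a1 one of -6.49 (adjusted p = 2.09e-05). Lum was lowest, at 0.514% of its tumor level. Some genes kept more, with Fn1 at 37.6% (-1.41, adjusted p = 0.000233), Fap at 39.1% (-1.35, adjusted p = 0.00304) and Col14a1 at 17.8%. Vcan was the 1 called higher, at 531% of its tumor level (2.41, adjusted p = 5.05e-05), and Pdpn, at 48.2%, did not pass (-1.05, adjusted p = 0.072). Per kilobase, Fn1 led in the sorted vehicle cells at 99.0 CPM per kb, and Col1a1 followed at 8.54.

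**Figure D4:**
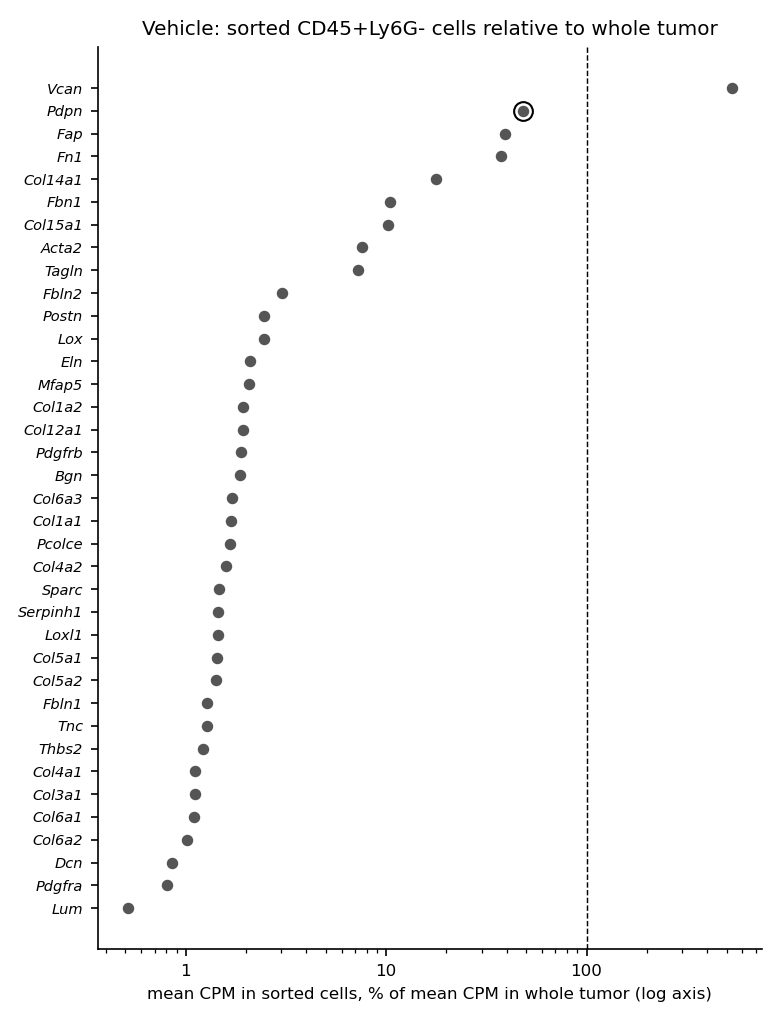
Level in sorted CD45+Ly6G- cells as a percentage of that in whole tumor (log axis, dashed line at 100), vehicle libraries, n = 4 each, for the 37 genes. The percentage is taken from the fitted log2 change, not from the mean CPM that the axis label names. Vcan lies at 531, Pdpn, the open circle that did not pass, at 48.2, and Lum, the lowest, at 0.514.

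In the sorted cells of ATOR-4066 animals, 7 of the 37 genes were called lower than with vehicle and none higher, against 5.11% and 6.76% of all genes. They were 2 fibrillar collagens (Col5a1, Col3a1), 2 other collagens (Col14a1, Col6a3), the microfibril protein Fbn1, the proteoglycan Dcn and the matricellular protein Sparc, and none of the 4 processing, 4 surface or 2 contractile proteins passed. The median change was -2.25 against -0.02 over all genes, and 33 of the 37 were negative. For 10 of the 37 every ATOR-4066 library lay below every vehicle library, against 14.1% of all genes. In this material ATOR-4066 9 had no count for 8 of the 37 and vehicle 7 none for 7.

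Col14a1 was at 4.16, 1.11, 7.43 and 1.41 CPM in vehicle libraries 6, 7, 9 and 10 and at 0.222, 0.0239 and 0.185 CPM in ATOR-4066 libraries 6, 9 and 10. The groups did not overlap (-4.59 ± 0.99, adjusted p = 0.0188). Dcn was at 7.16, 1.37, 5.04 and 5.55 CPM against 1.38, 0.526 and 0.856 CPM, where vehicle 7 lay just below ATOR-4066 6 (-2.38 ± 0.57, adjusted p = 0.0267). Col5a1 was at 19.4, 1.86, 13.9 and 15.9 CPM against 2, 0.167 and 0.44 CPM, again with vehicle 7 below ATOR-4066 6 (-3.88 ± 0.94, adjusted p = 0.0285).

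Sparc was at 24.5, 6.63, 20.4 and 15.7 CPM with vehicle and at 5.23, 0.646 and 3.73 CPM with ATOR-4066, without overlap (-2.39 ± 0.63, adjusted p = 0.0386). Col6a3 was at 16.6, 7.67, 15 and 20.8 CPM against 5.25, 0.311 and 1.13 CPM, without overlap (-2.75 ± 0.75, adjusted p = 0.0419). Fbn1, fibrillin 1, was at 12.5, 6.82, 9.6 and 9.79 CPM against 2.02, 0.335 and 3.35 CPM, without overlap (-2.34 ± 0.64, adjusted p = 0.043). Col3a1 was at 107, 9.24, 73.3 and 71.6 CPM against 12, 0.359 and 2.5 CPM, with vehicle 7 below ATOR-4066 6 (-3.72 ± 1.06, adjusted p = 0.0485). In each of these 7 genes ATOR-4066 9 was the lowest library and vehicle 7 the lowest of its group.

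The count of called genes depended on single libraries: it was 14 without vehicle 7, 1 without vehicle 6, 9 or 10, 3 without ATOR-4066 9 or 10, and 0 with a replicate block. Col1a1, at 104, 2.87, 71.3 and 46.1 CPM with vehicle and 11.9, 0.191 and 3.98 CPM with ATOR-4066, did not pass (-3.39 ± 1.24, adjusted p = 0.102). The make-up of the sort differed too. All 12 T cell markers were called higher with ATOR-4066, with a median of 1.83, against 6.76% of all genes. Of 14 macrophage markers 4 were called lower, against 5.11% of all genes. The macrophage markers summed to 1710 to 8100 CPM against 12300 to 14200 with vehicle. B cell markers summed to 526 CPM in ATOR-4066 9 and to 16.8 to 31.2 CPM in the other sorted libraries. The part of these differences in the values of the matrix genes was not tested.

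Pdpn was at 12, 5.88, 29.8 and 5.78 CPM in vehicle and at 65.1, 9.14 and 50.1 CPM in ATOR-4066 libraries, a change of 1.63 ± 0.67 (adjusted p = 0.138), with ATOR-4066 9 inside the vehicle range. CD40 mAb libraries 6, 7 and 10 had 36.9, 43.3 and 38.1 CPM, all above the vehicle libraries (1.56 ± 0.67, adjusted p = 0.242). None of the 37 genes passed for CD40 mAb against vehicle (1 without CD40 mAb 7), where 0.534% of all genes were called higher and 0.558% lower. Fn1 was at 4080, 1140 and 4260 CPM with CD40 mAb and at 1190, 1650, 901 and 885 CPM with vehicle (1.45 ± 0.47, adjusted p = 0.138), and Vcan at 293, 47.2 and 471 CPM against 73.7, 104, 37.5 and 52.7 CPM (2.02 ± 0.74, adjusted p = 0.18). For both genes CD40 mAb 7 lay inside the vehicle range and the other CD40 mAb libraries far above it. Macrophage markers summed to 14400, 23600 and 25800 CPM in CD40 mAb 6, 7 and 10, and to 12300 to 14200 CPM with vehicle. Their part in the values of Fn1 and Vcan was not tested.

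**Figure D5:**
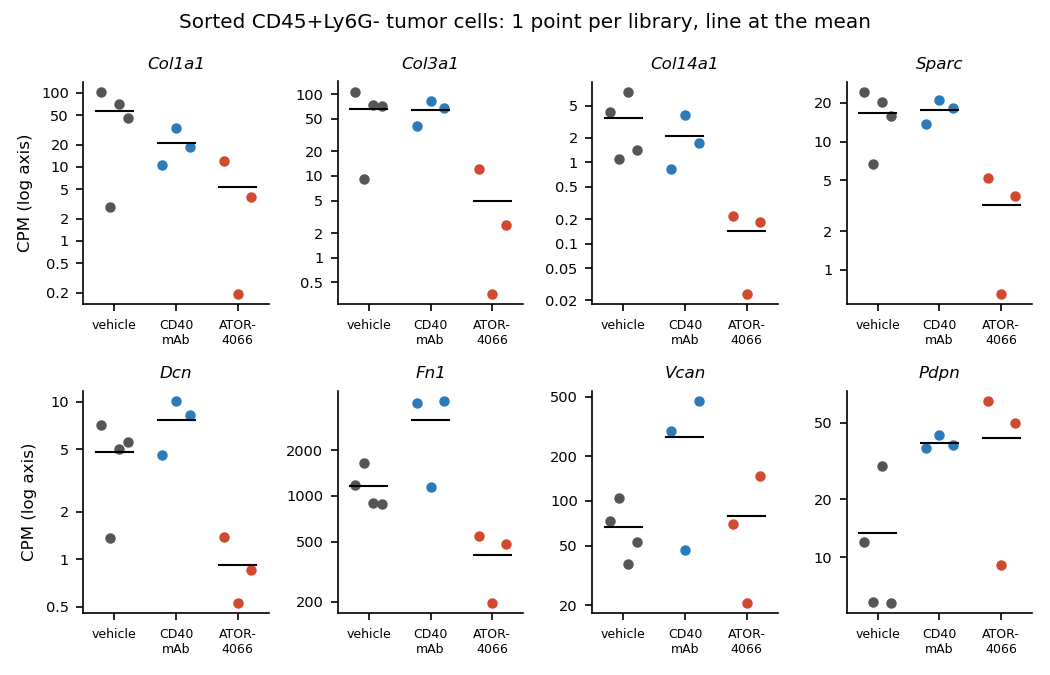
Level (CPM, log axis) of 8 genes in each library of sorted CD45+Ly6G- cells, by treatment, with a line at the mean. Sparc lies at 0.646 to 5.23 CPM with ATOR-4066 and at 6.63 to 24.5 CPM with vehicle, and Fn1 reaches 4260 CPM with CD40 mAb.

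Between the antibodies, 6 of the 37 genes were called lower in ATOR-4066 than in CD40 mAb sorted cells and none higher, against 2.96% and 5.27% of all genes. Fn1 was at 548, 196 and 479 CPM in ATOR-4066 libraries, below all CD40 mAb libraries (-2.96 ± 0.55, adjusted p = 0.0189). Dcn followed, at 4.58, 10.2 and 8.23 CPM with CD40 mAb (-3.06 ± 0.61, adjusted p = 0.0208). Col6a3 was at 23.5, 22.9 and 18 CPM (-3.27 ± 0.79, adjusted p = 0.0368), Col14a1 at 0.819, 3.8 and 1.74 CPM (-3.86 ± 0.98, adjusted p = 0.0419), Sparc at 13.6, 21.2 and 18.4 CPM (-2.47 ± 0.66, adjusted p = 0.0479) and Col5a1 at 8.02, 14.8 and 7.39 CPM (-3.54 ± 0.95, adjusted p = 0.049). For 19 of the 37, these 6 among them, every ATOR-4066 library lay below every CD40 mAb library, against 13.6% of all genes. Leaving out CD40 mAb 10 gave a count of 0, CD40 mAb 7 a count of 1, and CD40 mAb 6 or ATOR-4066 9 a count of 3. With a replicate block it was 0. Vcan had a change of -1.77 ± 0.81 (adjusted p = 0.193) and Pdpn one of 0.07 ± 0.71 (adjusted p = 0.966).

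Whether the ATOR-4066 change differed between sorted cells and whole tumor was tested as an interaction too. None of the 37 genes passed, against 3.88% of all genes higher and 5.14% lower, although 34 had a more negative change in the sorted cells, with a median difference of -2.29 against -0.1. Without sorted vehicle 7 and without the animal block 1 passed. For CD40 mAb none passed either, against 0.168% higher and 0.248% lower. Sorted and whole tumor libraries came from different animals.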

How the data were processed

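RNA was sequenced with a stranded mRNA kit from polyA RNA, per the labels' protocols. Values in the deposited table are salmon's estimated counts for each gene, per its name. The submitters' processing notes name STAR (version given as 5.1) and GRCm38; settings and annotation are not stated in the labels. Fractional values, 11% of all, were rounded. Of 52 libraries 36 were analysed, 2 were left out and 14 from blood were not used.

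The 3 treatments of a material were fitted together with edgeR 4.0.16 (R 4.3.3; filterByExpr, count minimum 10, total 15; TMM scaling; robust quasi-likelihood F test), with Benjamini-Hochberg adjustment over all genes and calls at an adjusted p under 0.05. Differences between materials were interaction contrasts in limma 3.58.1 (voomLmFit) with the animal as a random block, adjusted over 21400 genes. Errors of changes are standard errors. Replicates are animals with separate numbers.

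The members, lists and tests were chosen with earlier results of these data known. The naming rule took, per role group in tumor, up to 3 called genes or else that of smallest p. Elsewhere it took, per comparison, up to 8 called genes or else the 3 of smallest p. Not all genes that it picks are given for CD40 mAb against vehicle in tumor. The same holds for ATOR-4066 against CD40 mAb in tumor and lymph node. Other values are named after they were seen. Alternatives were DESeq2 1.42.0, upper-quartile scaling, no filter, a fit of only the compared groups, a replicate block, voom sample weights, both set-aside libraries kept, and leaving out each library. In data simulated from these libraries, 34% and 70% of genes changed by log2 1 and 2 were recovered in tumor, 67% and 90% in lymph node and 31% and 64% in sorted cells.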

Additional observations from a re-analysis of the deposited data

Results flagged for a closer look

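Single libraries far from the rest of their group were looked for in 259 combinations of gene and group of 4 or more libraries, and 12 were found, against 13 expected by chance at 1 in 20. In whole tumor, vehicle 4 stood apart for Col5a1 (1360 CPM, next 993) and Pdgfrb (124, next 71.8), in the group that both antibodies were compared with. CD40 mAb 5 stood apart for Acta2 (120, next 32), Tagln (96.4, next 20.2) and Pdgfra (71.6, next 139). This tumor had the highest T cell, macrophage, fat cell, endothelial and epithelial markers of its group. In lymph node, vehicle 1 stood apart for Thbs2 (37.2, next 14.7) and vehicle 5 for Acta2 (34.7, next 74.5). Among the sorted cells, vehicle 7 stood apart on the low side for Col6a2 (1.24, next 14.4), Mfap5 (0, next 0.528) and Thbs2 (0.914, next 4.07), and vehicle 6 on the high side for Fbln2 (4.75, next 0.37) and Postn (13.7, next 1.57), which encodes periostin, a matricellular protein.

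Changes that differed between tumor and lymph node, by the interaction test, were those of Pdpn (2.08), Fbln2 (2.11), Col14a1 (1.62), Lox (2.14), Mfap5 (2.12), Lum (2.58), Fbln1 (1.41) and Pdgfrb (-1.24) with ATOR-4066, and that of Mfap5 (2.49) with CD40 mAb.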

How the results depend on the processing

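Numbers of the 37 genes called moved with the setting. For ATOR-4066 against vehicle in tumor the 1 called became 9 with DESeq2, 13 with only the compared groups in the fit, 13 with voom sample weights, 0 with a replicate block, 0 with both set-aside libraries kept under their labels, and 0 to 1 without single replicates. All genes called there numbered 243, and in that order of settings 2443, 3959, 4946, 0 and 0, with 57 without a filter on low counts and 0 to 158 without single replicates (0 without vehicle 1). The share of calls that were higher was 69.5%, and 52.3% with DESeq2. For ATOR-4066 against CD40 mAb in tumor, 0 became 1 with DESeq2, 1 without a filter, 5 with voom weights and 0 to 1 without single replicates. In lymph node, 0 became 2 with DESeq2 for ATOR-4066 against vehicle, and for CD40 mAb 5 with DESeq2 and 2 with only the compared groups. Among the sorted cells, the 7 genes for ATOR-4066 against vehicle became 21 with DESeq2, 2 without a filter, 3 with only the compared groups, 0 with a replicate block, 13 with voom weights and 1 to 14 without single replicates. The 6 for ATOR-4066 against CD40 mAb became 17, 2, 0, 0 and 4 in that order, and 0 to 8 without single replicates. For CD40 mAb against vehicle 0 became 1 with DESeq2, and 0 to 1 without single replicates. The 36 genes called between sorted cells and tumor stayed at 35 to 37.

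For the tumor minus lymph node difference, 8 genes with ATOR-4066 and 1 with CD40 mAb became 8 and 2 without the animal block and 0 and 0 with the set-aside libraries. They became 1 to 9 and 0 to 7 without single replicates, an alternative run without the block and chosen after seeing the data. All genes called, 1259 and 587, became 1446 and 731, 0 and 0, and 222 to 2103 and 180 to 2275 in the same order. The sorted minus tumor difference of ATOR-4066 had 0, 1 with the set-aside libraries, and 0 to 1 without single replicates. Tagln changed sign: with CD40 mAb against vehicle in tumor it was 1.19 (-0.14 to 1.45 without single replicates, lowest without CD40 mAb 5), and for ATOR-4066 against CD40 mAb it was -0.57, but 0.12 with a replicate block, 0.03 with voom weights and -0.82 to 0.77 without single replicates, highest without CD40 mAb 5. Counts over all genes moved as well. For ATOR-4066 against CD40 mAb in tumor, 6 became 324 with DESeq2, 857 with voom weights and 0 with only the compared groups, a replicate block or the set-aside libraries, and 1 to 314 without single replicates (314 without CD40 mAb 5). In lymph node, 12 for CD40 mAb against vehicle became 1833 with DESeq2, 79 with upper-quartile scaling, 171 without a filter, 808 with only the compared groups, 1052 with voom weights, 1 with a replicate block, 0 with the set-aside libraries and 0 to 18 without single replicates, and 0 for ATOR-4066 became 503 with DESeq2 and 0 to 17 without single replicates. Between the antibodies there, 3 became 152 with DESeq2 and 0 to 4 otherwise. Among the sorted cells, 1977 for ATOR-4066 against vehicle became 3533 with DESeq2, 4465 with voom weights and 1090 with a replicate block, and 627 to 2525 without single replicates; 182 for CD40 mAb became 1527, 672 and 14, and 391 without a filter and 732 with only the compared groups, and 2 to 272 without single replicates (2 without vehicle 10); 1372 between the antibodies became 3013, 2073 and 363, and 3 with only the compared groups, and 105 to 2422 without single replicates (105 without CD40 mAb 10). The causes of these shifts were not tested. Replicate numbers share only a number: correlations of same-numbered deviations were over 0.1 in 2 of 12 pairs in tumor, 4 of 11 in lymph node and 1 of 8 among sorted cells.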
